A study of Mus musculus with 4 samples.

Results

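Amino acid transporters of the plasma membrane were examined in mouse CD4+ T cells before and shortly after the start of induced regulatory T (iTreg) cell differentiation. The 10 genes were Slc7a5, Slc3a2, Slc7a1, Slc7a6, Slc7a11, Slc1a5, Slc1a4, Slc38a1, Slc38a2 and Slc43a3, of 27192 named genes on the array. All probes that the array files list under these names were taken, which gave 21 probes, each printed as 1 spot per array. The study compared wild-type (WT) cells with cells lacking the nuclear receptors Nr4a1, Nr4a2 and Nr4a3 (Nr4a-TKO), and asked how these receptors act in early iTreg differentiation.

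There were 4 groups with 1 single-colour Agilent array each, namely naive T cells of both genotypes and iTreg cells of both at 3 h. All cells were sorted from chimeras, Rag2-/- hosts given bone marrow, as Ly5.2+ CD4+ CD62L high CD44 low Foxp3- cells of young adult C57BL/6J mice of both sexes. The Nr4a-TKO cells carried floxed Nr4a1 and Nr4a2 alleles, an Nr4a3-/- background and a Foxp3 reporter (hCD2-hCD52-KI), and the Cre driver is not given in the sources used here. They had developed beside WT Ly5.1 cells in mixed chimeras, whereas the WT cells came from chimeras that received WT marrow, so genotype and kind of chimera cannot be told apart. The 3 h cells had been cultured with plate-coated anti-CD3 at 2 µg/ml, anti-CD28 at 0.5 µg/ml, IL-2 at 10 ng/ml, TGF-β1, anti-IFN-γ and anti-IL-4. The labels name TGF-β1 at 0.2 or 0.5 ng/ml without saying which was used for these cells.

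Amino acid transporters let an activated lymphocyte import the building blocks of protein and nucleotide synthesis. Slc7a5 is the light chain and Slc3a2 the heavy chain of a heterodimer that takes up large neutral amino acids such as leucine, and Slc3a2 also partners Slc7a6 and Slc7a11. Leucine, arginine and glutamine are known to feed the mTORC1 kinase, and T cells are known to raise several of these transporters after stimulation through their antigen receptor.

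With 1 array per group, no test between groups was possible and no spread between animals or cultures is known. Values are normalized log2 intensities, and a difference is a log2 difference between 2 arrays. Within each array, the median standard deviation (SD) of repeated spots was taken over 300 probes that the array carries in at least 5 copies. Combined for 2 arrays, these gave an SD of 0.18 for a difference and of 0.25 for a difference between 2 changes, called the array SD below. These SDs cover the spread of spots within an array only. Differences in labelling or hybridization between arrays are not in them, so a difference above the array SD can still be technical. Between 64.9% and 67.6% of probes were well above background per array and none was saturated. The RNA was from bulk cells, in which fewer cells of a type and less RNA per cell cannot be told apart.

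The labelled cell type was checked against marker genes. All 7 CD4 T cell markers were well above background on the 4 arrays. The 6 naive T cell markers had a median difference of -2.41 in WT and -2.42 in Nr4a-TKO at 3 h, and the 6 activation markers one of 2.93 and 3.05. Between the naive arrays, Nr4a-TKO minus WT ranged from -0.07 to 1.25 over the activation markers, with a median of 0.19. The highest was Irf4, 2.38-fold higher in Nr4a-TKO naive cells. The 4 B cell markers were also measured, with a summed level on the log2 scale of 9.23 and 9.41 in WT and Nr4a-TKO naive cells and of 8.38 and 8.91 in the corresponding 3 h cells. The 4 myeloid markers summed to 15.19 and 15.27 in naive cells and to 15.09 and 15.08 at 3 h. Most of this came from an Itgam probe that differed by -0.09 in WT and -0.17 in Nr4a-TKO. Csf1r was at 11.64 in naive WT cells, 11.76 in naive Nr4a-TKO cells, 11.34 in WT iTreg cells and 11.16 in Nr4a-TKO iTreg cells. Cd14, a monocyte marker, was at 6.66 in naive WT cells and from 3.77 to 4.58 on the other arrays, so that it was at least 9.4-fold lower at 3 h in WT and 6.48-fold lower in Nr4a-TKO than in WT naive cells, while Lyz2 was between 3.79 and 4.27. Of 3 Treg markers, Foxp3 was 2.48-fold lower in Nr4a-TKO than in WT naive cells and 2.56-fold lower at 3 h. Ikzf2 was 2.59-fold lower in Nr4a-TKO naive cells but differed by 0.16 at 3 h. Ctla4 differed by 0.84 in naive cells and by 0.06 at 3 h, the Nr4a-TKO value being the higher one. Both CD8 markers were at 6.93 or below, and of 3 erythroid markers Hbb-b1 was not well above background on any array. The part of other cells in the results was not tested. The targeted genes did not all follow the labels. Nr4a1 was at 11.34 in WT and 11.82 in Nr4a-TKO at 3 h. Both Nr4a2 probes were higher in the 3 h array labelled Nr4a-TKO by 1.37 and 1.38, and the 3 Nr4a3 probes differed by -1.86, -1.47 and 0.19. In naive cells Nr4a1 was at 7.05 in WT and 8.39 in Nr4a-TKO. There the Nr4a2 probes differed by 0.77 and 0.19, and the Nr4a3 probes, in the same order, by 0.08, -0.39 and 0.02. Directions between genotypes below therefore rest on the labels, and probes outside the deleted parts cannot check them.

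Of the 21 probes, 17 were well above background on all 4 arrays and 3, all of Slc7a11, on none. Represented by its brightest probe, each gene could be compared in WT for 9 members, of which 5 were over 2-fold higher at 3 h and 0 over 2-fold lower. The median difference was 1.52, against -0.06 over all 19589 genes compared. Over all genes the share past 2-fold was 8.8% upward and 9.22% downward. In Nr4a-TKO, 5 of 10 members passed 2-fold upward and 0 downward, beside 8.22% and 9.23% of all genes, with a median difference of 0.98. Counted by probe, 12 of 17 were more than 2-fold higher in WT, beside 9.54% of all probes, and 8 of 18 in Nr4a-TKO, beside 8.55%.

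**Figure D1:**
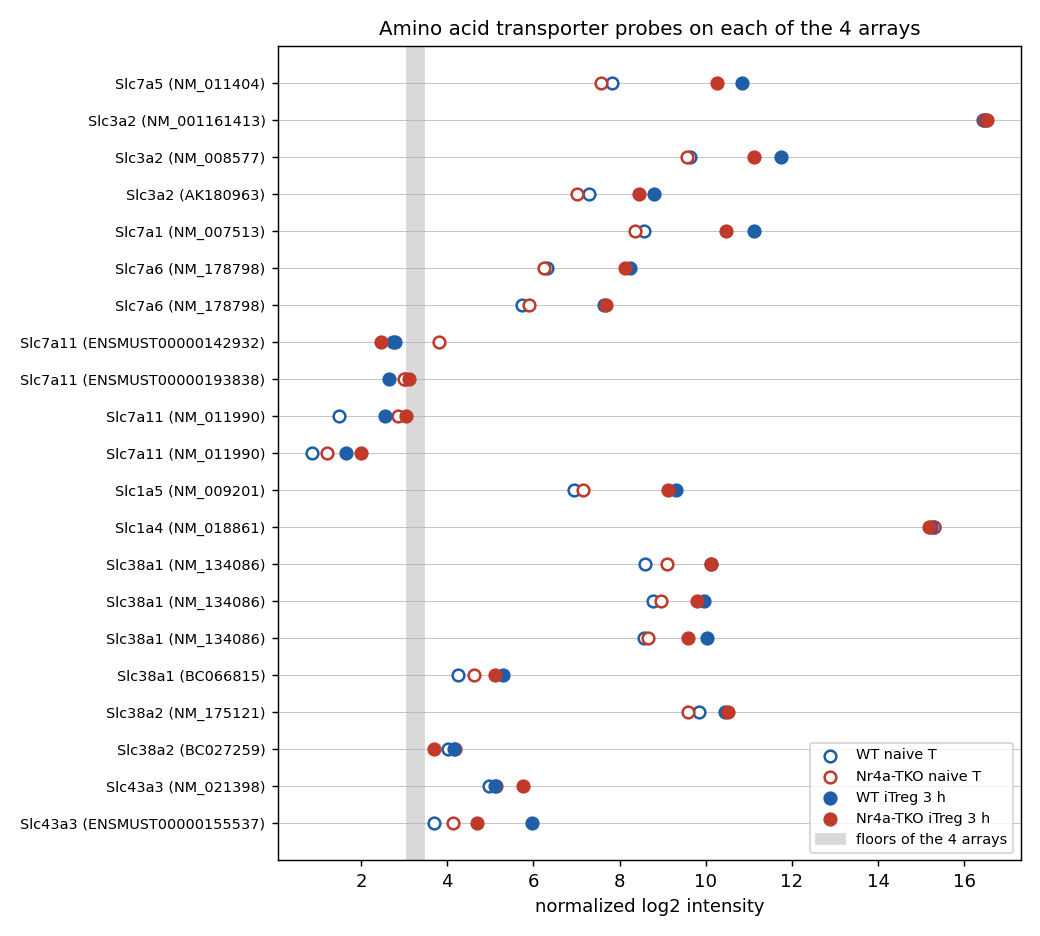
Normalized log2 intensity (horizontal axis) of each of the 21 probes (rows, with the transcript it was designed to) on the 4 arrays. Open circles are naive T cells, filled circles iTreg 3 h cells, blue is WT, red is Nr4a-TKO, and the grey band spans the lowest values of probes well above background. Slc7a5 moved from 7.82 to 10.83 in WT, whereas 1 Slc3a2 probe and the Slc1a4 probe gave almost the same value on all arrays.

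Slc7a5 had the largest difference among the members in both genotypes. Its only probe reads a stretch of the coding sequence, shown whole because the result rests on these bases alone (mm9, chr8:124430996-124431055, minus strand, starting at base 533 of NM_011404).
Slc7a5 probe: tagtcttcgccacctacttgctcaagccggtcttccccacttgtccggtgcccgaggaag
The log2 value was 7.82 in naive WT cells, 7.56 in naive Nr4a-TKO cells, 10.83 in WT iTreg cells and 10.25 in Nr4a-TKO iTreg cells. Both 3 h arrays lay above both naive arrays. Slc7a5 was thus 8.04-fold higher at 3 h in WT and 6.47-fold higher in Nr4a-TKO, and only 77 of 19589 genes had a larger increase in WT. On the processed intensity scale, before normalization, the same spot read 205 and 168 in the naive cells and 2129 and 1368 at 3 h. Nr4a-TKO minus WT was -0.26 in naive T cells and -0.58 at 3 h, and the change in Nr4a-TKO minus that in WT was -0.31, little more in size than the array SD of 0.25.

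Slc3a2, the heavy chain that carries Slc7a5 to the cell surface, gave different readings by different probes. The NM_008577 probe (mm9, chr19:8782189-8782248) was at 9.63 in naive WT cells, 9.56 in naive Nr4a-TKO cells, 11.74 in WT iTreg cells and 11.11 in Nr4a-TKO iTreg cells. The AK180963 probe was at 7.29, 7.02, 8.79 and 8.46 in the same order. By both, the 3 h arrays were above the naive arrays, 4.34-fold and 2.83-fold in WT and 2.91-fold and 2.71-fold in Nr4a-TKO. The third probe, designed to NM_001161413 (mm9, chr19:8781855-8781914), was at 16.44, 16.46, 16.50 and 16.52, and so differed by 0.06 in either genotype.

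The flat Slc3a2 probe holds bases that recur in probes of other genes. The shared stretch is printed with its commonest 20 bases in capitals, beside the first 30 bases of the NM_008577 probe, which shares no stretch of that length.
Slc3a2 probe of NM_001161413, bases 28 to 57: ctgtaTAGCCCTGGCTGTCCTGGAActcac
Slc3a2 probe of NM_008577, bases 1 to 30: gagggcttgctgttacagttcccctttgtg
The capitals occur, on either strand, in 5 probes of other genes. Over the whole flat probe, a stretch of 20 bases was shared with 3 other probes on the same strand and 8 on the opposite strand. Their median log2 levels were 13.95 and 14.74, and none of these probes was more than 2-fold apart between 3 h and naive T cells in WT. Bright probes seldom were, whether they shared a stretch or not. Of the 135 probes at least as bright as the Slc1a4 probe described below, 2 (1.48%) were past 2-fold in WT. The bright probe chosen by rule therefore placed Slc3a2 among the members that did not pass 2-fold, whereas its other probes did. Whether the bright probe reads Slc3a2 mRNA was not tested.

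Slc1a4, a carrier of alanine, serine and cysteine, was represented by 1 probe of the same kind (mm9, chr11:20202615-20202674). It was at 15.30 in naive WT cells, 15.30 in naive Nr4a-TKO cells, 15.22 in WT iTreg cells and 15.17 in Nr4a-TKO iTreg cells. The 4 normalized values lay within the array SD of each other. Its shared stretch, rich in G and T, is printed with the 20 commonest bases in capitals.
Slc1a4 probe, bases 24 to 53: atcaaGTGTGTGTGTGTATGTGTGTgcttt
The capitals occur in 6 probes of other genes on the same strand, whose median log2 level was 16.33 and of which none was past 2-fold in WT. Of the 135 probes as bright as the Slc1a4 probe or brighter, 2 were past 2-fold in WT, with a median difference of 0.01. These data thus hold no second reading of Slc1a4.

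**Figure D2:**
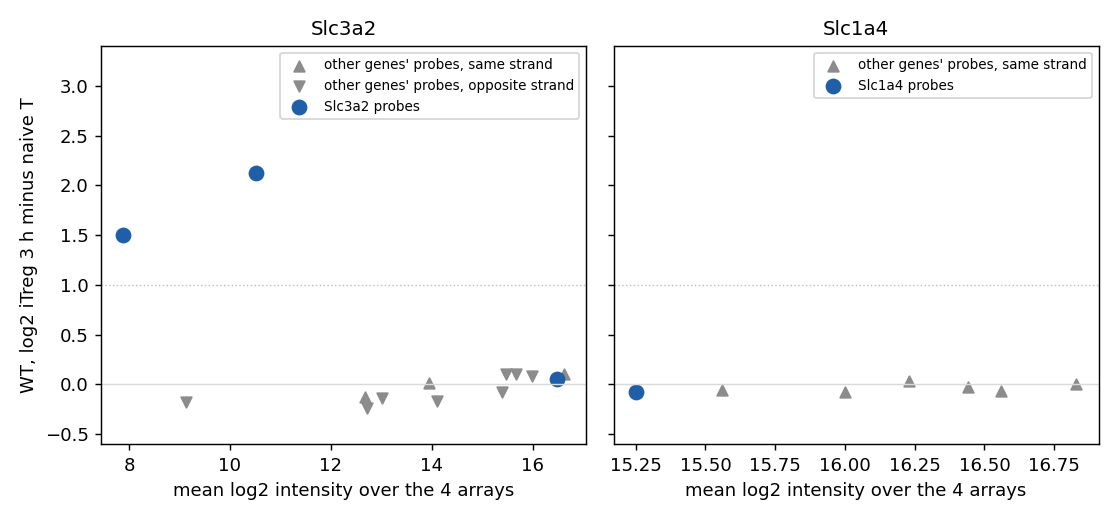
Difference between WT iTreg 3 h and WT naive T (vertical axis, log2) against the mean log2 intensity over the 4 arrays (horizontal axis) for the probes of Slc3a2 (left) and Slc1a4 (right, blue) and for probes of other genes that share a stretch of 20 bases with them (grey, pointing up for the same strand and down for the opposite). The Slc3a2 probes that share no stretch were 4.34-fold and 2.83-fold higher, and the bright one lies at 0.06 with the probes that share its bases.

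Among the carriers of cationic amino acids, Slc7a1, which imports arginine and lysine without a heavy chain, was at 8.57 in naive WT cells, 8.35 in naive Nr4a-TKO cells, 11.12 in WT iTreg cells and 10.46 in Nr4a-TKO iTreg cells. It was 5.85-fold higher at 3 h in WT and 4.3-fold higher in Nr4a-TKO. Nr4a-TKO minus WT was -0.66 at 3 h and -0.22 in naive T cells. Slc7a6, which exchanges arginine for neutral amino acids together with Slc3a2, had a pair of probes that gave like values. The brighter was at 6.32, 6.25, 8.24 and 8.13 and the dimmer at 5.74, 5.89, 7.63 and 7.68, in the same order of arrays. In WT they were 3.78-fold and 3.72-fold higher at 3 h, in Nr4a-TKO 3.68-fold and 3.45-fold, and the genotypes differed at 3 h by -0.11 and 0.05, less than the array SD.

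Slc7a11, the light chain of the cystine and glutamate exchanger, was near or below background. Of its 4 probes, 3 were not well above background on any array, with processed intensities from 1.36 to 2.68. The fourth, designed to ENSMUST00000142932, was well above background only in Nr4a-TKO naive T, where it read 3.80. Against the lowest measurable level it was at least 1.28-fold higher there than in WT naive T and at least 1.66-fold higher than in Nr4a-TKO iTreg 3 h. No change of Slc7a11 in WT could be measured, and this array does not show whether the gene was expressed below that level.

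The glutamine carriers were higher at 3 h, to different extents. Slc1a5, which exchanges glutamine and other neutral amino acids, was at 6.94 in naive WT cells, 7.15 in naive Nr4a-TKO cells, 9.32 in WT iTreg cells and 9.12 in Nr4a-TKO iTreg cells. This was 5.19-fold higher at 3 h in WT and 3.94-fold higher in Nr4a-TKO, with a difference of -0.19 between the genotypes at 3 h, about the array SD. Slc38a1, a sodium-coupled importer of glutamine, had 3 probes to NM_134086. They were 2.87-fold, 2.3-fold and 2.77-fold higher at 3 h in WT, and 2.03-fold, 1.79-fold and 1.91-fold higher in Nr4a-TKO. The brightest was at 8.59, 9.10, 10.11 and 10.13, so that the genotypes differed by 0.52 in naive T cells and by 0.02 at 3 h. The other NM_134086 probes differed by 0.19 and 0.11 in naive T cells and by -0.17 and -0.44 at 3 h, so the stage at which the genotypes stood apart depended on the probe. All 4 Slc38a1 probes, the dim BC066815 probe included, had a smaller change in Nr4a-TKO, with differences of changes from -0.54 to -0.36. They read the same arrays and are not replicates. The Nr4a-TKO difference of the brightest, 1.02, was under 2-fold with a normexp offset of 50 (0.96) and with the probes averaged (0.82).

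Slc38a2, a related importer known for its response to amino acid shortage, was at 9.85 in naive WT cells, 9.59 in naive Nr4a-TKO cells, 10.45 in WT iTreg cells and 10.52 in Nr4a-TKO iTreg cells. It was 1.52-fold higher in WT and 1.91-fold higher in Nr4a-TKO, under 2-fold in both. The Nr4a-TKO difference of 0.94 passed 2-fold with 75th-percentile scaling (1.14) and in the deposited table (1.16). Its dim BC027259 probe was at 4.02, 4.17, 4.16 and 3.69 in the same order, a difference of 0.14 in WT and of -0.48 in Nr4a-TKO, opposite in direction to the other probe there. With both probes averaged, the Nr4a-TKO difference was 0.23.

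Slc43a3, a member of the SLC43 family that is known to carry purine nucleobases, also had probes that went apart. The NM_021398 probe was at 4.98 in naive WT cells, 5.13 in naive Nr4a-TKO cells, 5.10 in WT iTreg cells and 5.75 in Nr4a-TKO iTreg cells, so that the Nr4a-TKO value was the higher one at 3 h by 0.65. The ENSMUST00000155537 probe was at 3.69, 4.14, 5.97 and 4.70, and there the Nr4a-TKO value was the lower one, with a difference of -1.27. In WT the second probe was 4.85-fold higher at 3 h, and in Nr4a-TKO 1.47-fold. Both probes were dim, with processed intensities of 8.35 to 62.1, and which transcripts each reads was not analysed here. With both averaged, the difference in WT was 1.20, past 2-fold.

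Between the genotypes, no member passed 2-fold by its brightest probe. In naive T cells 0 of 10 members were more than 2-fold higher or lower, beside 2.02% and 1.72% of all genes, and the median difference was 0.01. At 3 h 0 of 9 were, beside 1.88% and 2.47% of all genes, with a median of -0.06 and a range from -0.66 for Slc7a1 to 0.65 for Slc43a3. By probe, 1 of 17 was more than 2-fold lower in Nr4a-TKO, the Slc43a3 probe above, beside 2.54% of all probes. The Nr4a-TKO value was the lower one for 12 of 17 probes at 3 h, beside 49.6% of all probes. The change was smaller in Nr4a-TKO for 14 of 17, beside 48.9% of all probes. The median difference of changes was -0.36, against 0.01 over all probes. By the brightest probe of each gene, the change was smaller in Nr4a-TKO for 6 of 9 members, beside 48.3% of all genes. The median by gene was only -0.05, against 0.01 over all genes. Both genotypes' changes are set side by side, not as independent readings, since several probes share a gene and each stage has 1 array per genotype.

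**Figure D3:**
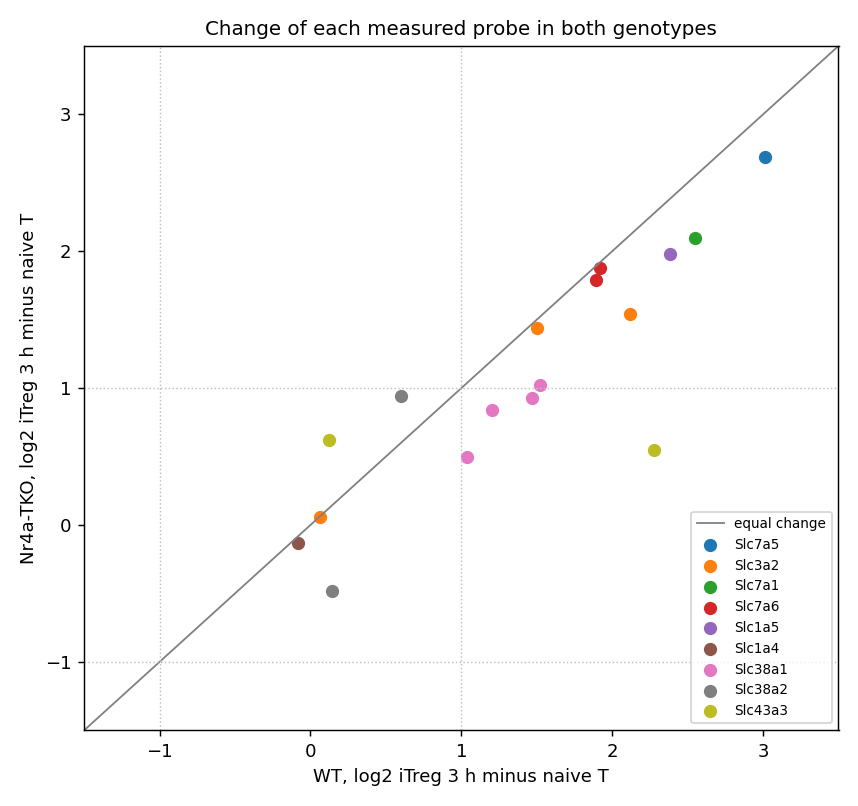
Log2 difference between iTreg 3 h and naive T cells in WT (horizontal axis) and in Nr4a-TKO (vertical axis) for the 17 probes measured in both, coloured by gene. The grey line marks equal change and dotted lines 2-fold. Of these probes 14 lie below the line, the farthest being a Slc43a3 probe at 2.28 in WT and 0.55 in Nr4a-TKO.

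Other amino acid transporters of the plasma membrane were compared in the same way. Of 33 listed genes, 23 could be compared in WT, of which 0 were more than 2-fold higher and 1, the neurotransmitter family carrier Slc6a17, was lower, with a difference of -1.26. Their median difference was -0.01. Past 2-fold, 8.8% of all genes were higher and 9.22% lower in WT, and 8.22% and 9.23% in Nr4a-TKO. In Nr4a-TKO 1 of 25, the cationic carrier Slc7a3, was at least 2.09-fold higher, and the median was -0.15. Slc7a3 was at least 1.61-fold higher in WT, and Slc6a17 differed by -0.43 in Nr4a-TKO.

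Genes listed as carriers of the lysosome and mitochondrion went both ways, and where each protein resides, Slc38a6 included, was not checked. In WT 4 of 22 were more than 2-fold higher and 2 lower, beside 8.8% and 9.22% of all genes. In Nr4a-TKO 3 of 23 were higher and 3 lower, beside 8.22% and 9.23%. The median was -0.07 in each genotype. The mitochondrial glutamate carrier Slc25a22 was 4.58-fold higher in WT, the ornithine carrier Slc25a15 at least 3.09-fold and Slc25a39 2.89-fold, whereas the aspartate and glutamate carrier Slc25a12 differed by -1.54 and the lysosomal Slc36a1 by -1.27. In Nr4a-TKO Slc25a39, Slc25a15 and Slc38a6 were higher by 1.23, at least 1.09 and 1.02, and Slc36a1, Slc25a12 and Sfxn3 differed by -1.49, -1.36 and -1.12. Slc25a22 was 1.96-fold higher in Nr4a-TKO, and in WT Slc38a6 and Sfxn3 differed by -0.04 and -0.82. At 3 h the cystine exporter Ctns and Slc38a6 were higher in Nr4a-TKO than in WT, 3.01-fold and 2.78-fold.

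Genes of amino acid sensing by mTORC1 had a median difference of 0.08 in WT and 0.02 in Nr4a-TKO, with 2 of 36 more than 2-fold higher and 4 lower in WT, and 1 higher and 3 lower in Nr4a-TKO. The shares of all genes to read these counts against were given above (8.8% and 9.22% in WT, 8.22% and 9.23% in Nr4a-TKO), and the genes that follow are named by rule as single values. The leucyl-tRNA synthetase Lars was 4.81-fold higher in WT and 4.01-fold in Nr4a-TKO. The sestrins, which restrain mTORC1 when leucine is scarce, went apart. Sesn2 was 3.05-fold higher in WT and 1.77-fold in Nr4a-TKO. Sesn1 and Sesn3 differed by -1.87 and -1.33 in WT and by -2.04 and -1.84 in Nr4a-TKO. Rptor, the mTORC1 scaffold, differed by -1.77 in WT and by -0.38 in Nr4a-TKO. In naive T cells its Nr4a-TKO minus WT difference was -1.49. These Rptor values rest on the brightest of its 4 probes, designed to AK137878, and the others are not given here. Lamtor2 differed by -1.09 in WT and by -1.63 in Nr4a-TKO, and Flcn differed by -1.01 between Nr4a-TKO and WT at 3 h.

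In WT 8 of 17 genes of glutamine and glutamate use were more than 2-fold higher, beside 8.8% of all genes. In Nr4a-TKO 9 of 17 were, beside 8.22%. Past 2-fold lower were 0 in either, beside 9.22% and 9.23% of all genes, and the medians were 0.55 and 1.13. Psat1, an enzyme of serine synthesis, was 10.2-fold higher in WT and 6.7-fold in Nr4a-TKO. Bcat1, which transfers the amino group of branched-chain amino acids, was 6.88-fold and 12.8-fold higher. Aldh18a1, of proline synthesis, was 4.13-fold higher in WT and 3.0-fold in Nr4a-TKO, and the asparagine synthetase Asns 3.38-fold and 4.29-fold. Glutaminase 2 (Gls2) was 2.43-fold higher in Nr4a-TKO than in WT at 3 h.

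Of 13 measured genes of cysteine and glutathione, 5 were more than 2-fold higher and 2 lower in each genotype. The shares of all genes were 8.8% and 9.22% in WT and 8.22% and 9.23% in Nr4a-TKO. The thioredoxin reductase Txnrd1 was 6.34-fold higher in WT and 6.23-fold in Nr4a-TKO, and Mat2a, which makes S-adenosylmethionine, 3.09-fold and 2.97-fold. Chac1 was at least 2.84-fold higher in WT and at least 2.59-fold in Nr4a-TKO, and Txn1 2.83-fold and 3.18-fold. The lipid peroxidase Gpx4 differed by -2.83 and -1.90, and Ggt1 by -1.31 in WT, while in Nr4a-TKO it was at least 5.35-fold lower.

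Of 8 regulators, 3 were more than 2-fold higher in each genotype, beside 8.8% of all genes in WT and 8.22% in Nr4a-TKO. In WT 1 was lower and in Nr4a-TKO 0, beside 9.22% and 9.23% of all genes. Myc, a known activator of transporter genes in T cells, was at 10.16 in naive WT cells, 10.02 in naive Nr4a-TKO cells, 12.51 in WT iTreg cells and 11.85 in Nr4a-TKO iTreg cells. It was 5.09-fold higher in WT and 3.54-fold in Nr4a-TKO, and the genotypes differed by -0.66 at 3 h. Trib3 and Hif1a were 3.71-fold and 2.87-fold higher in WT and 2.37-fold and 2.05-fold in Nr4a-TKO. Atf4, the transcription factor of the amino acid response, was higher by 0.71 in WT cells and by 1.00 in Nr4a-TKO cells. Nfe2l2 was lower at 3 h, with differences of -0.69 in WT and -0.40 in Nr4a-TKO. Nedd4l, a ubiquitin ligase, differed by -1.10 in WT and by -0.92 in Nr4a-TKO.

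**Figure D4:**
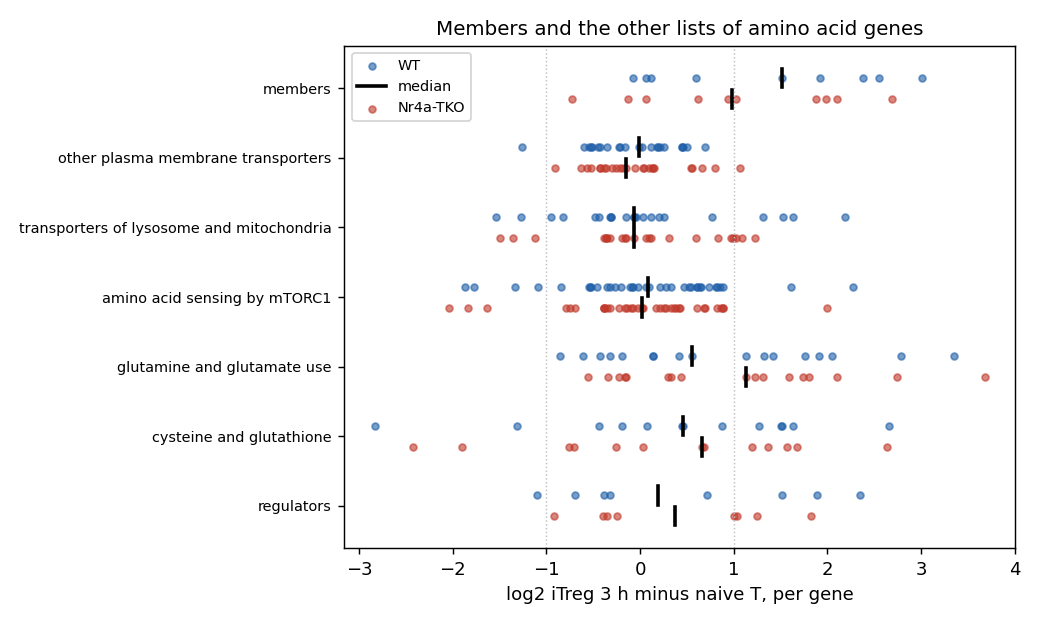
Log2 difference between iTreg 3 h and naive T cells (horizontal axis) for each measured gene of the 10 members and of 6 lists of amino acid genes (rows), in WT (blue) and Nr4a-TKO (red). Black bars are medians and dotted lines mark 2-fold. The members' medians are 1.52 and 0.98, and those of the other plasma membrane transporters -0.01 and -0.15.

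The genes whose 4 values ran most like those of Slc7a5, by Euclidean distance after each gene was centred on its own mean, were Srm at 0.18, Eif4ebp1 at 0.22, Naf1 at 0.27, Mafg at 0.35 and Tgif1 at 0.38, among 15646 genes over 4 arrays. Srm makes spermidine and Eif4ebp1 is a translation repressor that mTORC1 phosphorylates. By the flat probe, the genes nearest to Slc3a2 were Pde3a at 0.01 and Aen, Pwwp2a, Polr2m and Cox7a1 at 0.02, all of them flat. By its NM_008577 probe, a choice made after the values were seen, they were Aldh18a1 at 0.10, Foxred2 at 0.12, Txnrd3 and Pusl1 at 0.14 and Slc10a3 at 0.15.

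Promoters, taken as 250 bases before to 50 after the gene start (RefSeq, GRCm38.p6), were at hand for Slc3a2, Slc7a1, Slc7a6, Slc7a11, Slc1a4 and Slc38a2, with 8 promoters in all. Those of Slc7a5, Slc1a5, Slc38a1 and Slc43a3 were not searched, so 3 of the 5 members past 2-fold in WT are left out of the counts. Searched on both strands, the Nr4a monomer element AAAGGTCA was in 0 of them and in 0.779% of all 32851 promoters. The E-box CACGTG, which Myc and Max can bind, was in 0 and 7.15%, and the Ets element CCGGAAGT in 0 and 2.11%. The letters TGATGNAA, an element of the amino acid response, were in 1 promoter, that of Slc7a11, and in 2.12% of all. The AP-1 element TGACTCA was in 1, that of Slc7a1, and in 2.56% of all. Both are printed with the match in capitals, 66 bases before the start of Slc7a11 (chr3:50443661-50443690, minus strand) and 123 bases before that of Slc7a1 (chr5:148400010-148400038, minus strand).
Slc7a11 promoter: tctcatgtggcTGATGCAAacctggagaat
Slc7a1 promoter: gccatcagctcTGACTCAagctcagttgc
A match describes letters in this window only. Slc7a1 was among the members with the largest difference at 3 h, and Slc7a11 was not well above background at 3 h in either genotype.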

How the data were processed

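RNA of naive CD4+ T cells and iTreg cells at 3 h was hybridized to 1-colour Agilent arrays, 1 per group. The authors deposited scanner files with the intensity of each spot and its flags, made with Agilent Feature Extraction 11.5.1.1 per the labels, and a log2 value table. The study's methods name RMA normalization, whereas the deposited values equal log2 of the processed intensity minus each array's 75th percentile of it (SD of the offset 0.0029), with column medians from -2.33 to -2.16. Here, mean signals were background-corrected (normexp, offset 0) and quantile normalized with limma 3.58.1 in R 4.3.3, after leaving out control spots and 115 to 160 outlier spots per array. Tables were handled in Python 3.11.15 (pandas 2.3.3, figures by matplotlib 3.10.9, arithmetic by numpy 2.4.6).

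Dim probes were raised to the lowest value of a probe well above background (3.07 to 3.45), a difference needed 1 of the arrays compared to be well above background, and where the other was not it is a bound. A gene took its probe with the highest mean. Of 56605 probes, 41700 carry a current symbol, 1518 got one through their transcript and 520 through an older symbol (RefSeq, GRCm38.p6), 2574 kept the file's name and 10293, including those named only by an accession, were not counted as genes. Probe coordinates are on mm9 as the files give them. No test was run, since each group has 1 array, and called means past 2-fold. The scripts were tested on simulated data. The members and lists were chosen with earlier results of these data known. All members are named, and of each list the 3 largest differences past 2-fold in each direction, with Atf4, Myc and Nfe2l2. Alternatives were other backgrounds, scalings, filters, thresholds and probe rules.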

Additional observations from a re-analysis of the deposited data

How the results depend on the processing

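No paired analysis was possible because each group has 1 array, and no array could be left out for the same reason. Under each alternative, between 5 and 7 members were more than 2-fold higher in WT and between 4 and 6 in Nr4a-TKO. With a threshold of 1.5-fold the counts were 6 and 7, and with 3-fold 4 and 4. No share of all genes is given at these thresholds, so the counts cannot be read against one. The median change in WT was 1.31 when a gene's probes were averaged, 1.06 with no filter on dim probes and 1.34 as a mean over members. With that average, the median difference of changes was -0.31. With no filter, 1 member, Slc7a11, was more than 2-fold lower at 3 h in Nr4a-TKO, with a difference of -1.33. In naive T cells Slc7a11 was also more than 2-fold apart between the genotypes, by 1.06. Its probe was well above background only in Nr4a-TKO naive T, and no share of all genes is given for this setting. At 1.5-fold, 1 member was lower at 3 h in Nr4a-TKO and 2 were apart between the genotypes at 3 h, again without a share of all genes. The remaining alternatives were chosen after seeing the data. With the median of a gene's probes, the median was 1.91 in WT and 1.21 in Nr4a-TKO, the 3 h difference -0.30 and the difference of changes -0.40. Without probes that share 20 bases with 10 or more probes of other genes, the medians were 1.92 and 1.28 and the difference of changes -0.31. This left out the bright Slc3a2 probe but kept the Slc1a4 probe, which shares with 6 and stayed at -0.08 in WT and -0.13 in Nr4a-TKO. Counting names that are only an accession as genes made the share of genes more than 2-fold higher 8.48% in WT, over 26379 genes, in place of 8.8%. The causes were not tested beyond what each alternative leaves out by construction. The number of arrays limits the precision.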
